A study of Mus with 15 samples.

Results

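The Zic, Otx, Emx and En genes encode transcription factors that divide the embryonic brain into regions, and the histone mark H2AK119ub1 (H2Aub) was followed here over 10 of them in the adult mouse thalamus. The genes were Zic1, Zic2, Zic4, Zic5, Otx1, Otx2, Emx1, Emx2, En1 and En2, which are 10 of the 21883 protein-coding genes of the RefSeq mouse annotation. They were taken by gene family, with earlier results of these data known. For each gene, every H2Aub peak that overlapped the gene body plus 5 kb on either side (the locus) was collected. Zic1 and Zic4 lie next to each other, as do Zic2 and Zic5, so both pairs were also treated as single loci, which left 8 loci without shared bases.

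H2Aub was mapped by ChIPmentation, in which the transposase Tn5 adds sequencing adapters to chromatin held on antibody beads. The chromatin came from dissected thalami of mice aged 2 to 4 months, pooled from 3 to 4 animals a sample by the labels, or 2 to 4 by the methods text. The question was whether repeated cocaine alters H2Aub and whether the response needs Maged1, a gene of the MAGE family. There were 11 peak lists, each from its own biological sample, with 3 for WT cocaine, 3 for WT saline, 2 for cKO cocaine and 3 for cKO saline. The WT mice carried the genotype label Maged1 Loxp, a floxed allele with no deletion. In the Maged1cKO mice, Cre under the vGluT2 promoter had deleted Maged1, so the deletion was limited to cells that had used this promoter. All groups had received saline for 3 days, followed by 5 days of either cocaine (20 mg/kg, intraperitoneal) or saline. Peak lists hold no RNA levels, so neither the loss of Maged1 nor the thalamic origin of the tissue could be checked against marker genes. In bulk thalamus, fewer cells with the mark and less of it per cell cannot be told apart.

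H2Aub is placed on histone H2A by Polycomb repressive complex 1 and is known for its association with silenced genes. In differentiated neurons, Polycomb domains typically cover developmental transcription factor genes that specify other regions or other lineages. Otx2 specifies the forebrain and midbrain and, with its antagonist Gbx2, sets the boundary between midbrain and hindbrain. En1 and En2 act at that boundary in the midbrain and cerebellum. Emx1 and Emx2 pattern the cerebral cortex. The Zic genes encode zinc finger proteins of the dorsal neural tube, the forebrain midline and the cerebellum.

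The positions below are those of the gene bodies in mm10, the assembly used for the peaks. Zic1 (chr9:91358058-91365768) and Zic4 (chr9:91365631-91389351) overlapped by 138 bp, and their loci shared 10138 bp, so a peak near the gene ends counted for both. Zic5 (chr14:122459160-122465658) and Zic2 (chr14:122475384-122480328) were 9725 bp apart, and their loci shared 275 bp. The non-coding gene 2610035F20Rik lay within reach of both, and the high-coordinate end of the Zic2 locus also touched Pcca. Otx1 was at chr11:21994764-22001651, with Ehbp1 inside its locus, and Otx2 at chr14:48656781-48667644, with the non-coding gene Otx2os1. Emx1 was at chr6:85187931-85204463 and was the only member with no other annotated gene in its locus. Emx2 was at chr19:59458690-59465357, with the antisense gene Emx2os. En1 was at chr1:120602487-120607991 and En2 at chr5:28165696-28172190, each with a non-coding gene (Gm34352 and Gm52808) in its locus. A peak in these shared stretches could not be assigned to a single gene. Loci were 14945 to 33721 bp long, against a median of 27169 bp over all protein-coding genes.

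The lists differed in length, which bears on every covered length given below. They held 7271 to 80713 peaks that covered 4.24 to 27.6 Mb, and the number of reads behind them is unknown from these files. The cKO cocaine and cKO saline lists numbered 1 stood apart from the other 9, with 54653 and 80713 peaks of median width 206 and 198 bp and maximal folds over input of 31.2 and 52.6. WT cocaine lists covered 10.4 to 17.2 Mb and WT saline lists 5.55 to 11.1 Mb. Covered length was therefore also read in 2 other ways, as the gene's rank within its own list and as a share of the list's own total. Covered length cannot exceed the locus, so at a nearly full locus this share falls as a list grows. Values scaled to the mean list length can pass the locus length, as at Emx2 in WT saline 2 (30330 bp in a locus of 16668 bp).

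H2Aub was found at nearly all of these genes in nearly every list. A peak was present in all 11 lists at 8 of the 10 genes, and the exceptions were Zic1 (10 lists) and Zic5 (9 lists). Over all protein-coding genes, 6.76% had a peak in all 11 lists. A peak of at least 5 kb was seen in at least 1 list at 6 members, against 1.92% of protein-coding genes, and in at least 6 lists at 5 members, against 0.914%. All 6 members with such wide peaks were Otx, Emx or En genes. The number of lists with a wide peak was 11 for Otx1, 10 for En2, 9 for Emx1, 9 for En1, 6 for Emx2 and 5 for Otx2, and it was 0 for each Zic gene. By the share of locus covered, however, Zic2 and Emx1 had close means, 28.4 and 28.3% over the 11 lists, and Zic2 was above Emx1 in 6 of 11.

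**Figure D1:**
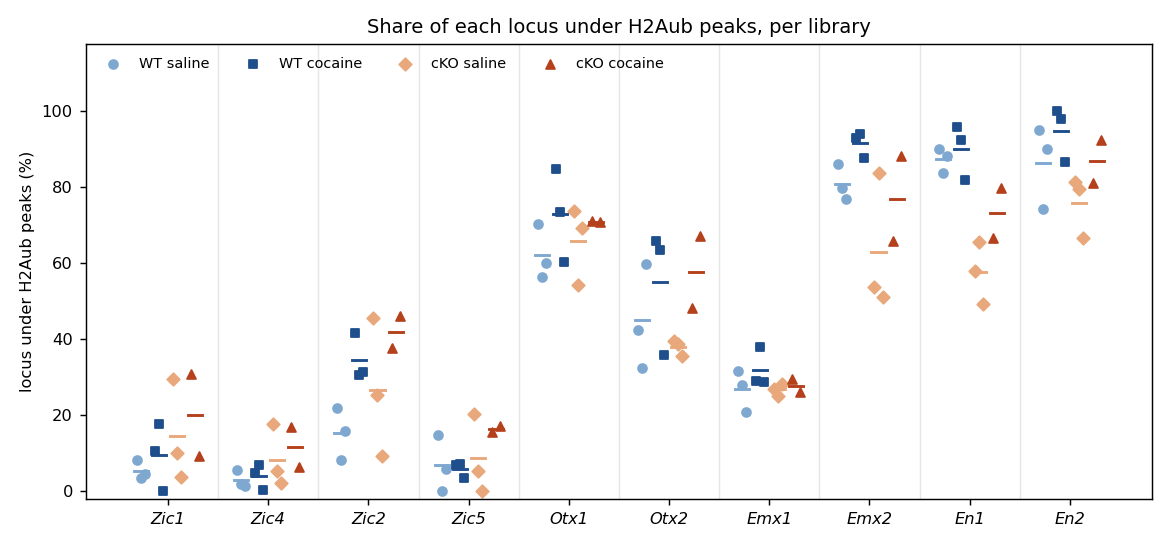
Share of each locus (gene body plus 5 kb on each side) under H2Aub peaks in percent, with 1 point per library, colour and shape for the 4 groups and a short bar at each group mean. The Zic1, Zic4 and Zic5 loci stay at or below 30.7% in every library, Zic2 reaches 46.1%, and En2 lies at 66.5% or above in every library.

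Zic1, which acts in cerebellar development, had uneven coverage. It was 1867, 3107 and 0 bp in the WT cocaine lists and 1440, 586 and 777 bp in the WT saline lists. In the cKO cocaine lists it was 5429 and 1634 bp, and in the cKO saline lists 5201, 1756 and 666 bp. The 2 highest values were those of the cKO lists numbered 1, which stood apart, and the other 9 lists stayed at or below 3107 bp. Its neighbour Zic4 had 1617, 2258 and 126 bp in the WT cocaine lists, 1849, 586 and 476 bp in WT saline, 5701 and 2083 bp in cKO cocaine, and 5907, 1756 and 666 bp in cKO saline. In 3 lists (WT saline 2, cKO saline 2 and cKO saline 3) Zic1 and Zic4 had equal values, since the same peaks in their shared stretch made up both. Most of the Zic4 signal came from that side. The flank of Zic4 that overlaps Zic1 was covered over a median of 23.7% of its length, the gene body over 1.74% and the far flank over 0.0%, with a peak in the far flank in 1 list. The paired Zic1-Zic4 locus had no base that was covered in all 11 lists, and at most 7 lists agreed on a base. Of its 41294 bp, 538 bp (1.30%) were covered in 6 or more lists, as a single stretch at chr9:91363875-91364412 inside the Zic1 body.

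Zic2, a gene of forebrain midline formation, was the Zic gene with most coverage. It had 6199, 4542 and 4683 bp in the WT cocaine lists, 3270, 1226 and 2353 bp in WT saline, 5627 and 6895 bp in cKO cocaine, and 6794, 3761 and 1372 bp in cKO saline. The lowest value came from a WT saline list and the highest from a cKO cocaine list, and its widest peak in any list was 3540 bp. Zic5, a gene of the dorsal neural tube, had 1138, 1187 and 541 bp in the WT cocaine lists, 2422, 0 and 934 bp in WT saline, 2570 and 2823 bp in cKO cocaine, and 3347, 883 and 0 bp in cKO saline. The far flank of Zic5, away from Zic2, had a peak in 2 lists, and the flank facing Zic2 in 9. At the paired locus at most 9 lists agreed on a base. The longest stretch covered in 6 or more lists was 1292 bp (chr14:122475813-122477104), inside the Zic2 body.

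Otx1, a factor of cortical and sensory development, had a wide peak in every list. It was covered over 14313, 12414 and 10177 bp in the WT cocaine lists, 11870, 9514 and 10123 bp in WT saline, 11985 and 11953 bp in cKO cocaine, and 12434, 9150 and 11698 bp in cKO saline. The widest peak ran from 5279 to 13584 bp over the lists. Otx2, in contrast, was broken into 4 to 8 peaks per list. Its covered length was 13735, 13203 and 7437 bp in the WT cocaine lists, 8836, 6769 and 12477 bp in WT saline, 10040 and 14004 bp in cKO cocaine, and 8241, 8085 and 7393 bp in cKO saline. Within both WT groups the lists spread widely, and the cKO saline lists lay close together.

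Emx1, which marks the developing cortex, was covered mainly at its low-coordinate end. The covered length was 7687, 10061 and 7606 bp in the WT cocaine lists, 8355, 7430 and 5522 bp in WT saline, 7792 and 6911 bp in cKO cocaine, and 7148, 6621 and 7479 bp in cKO saline. The low-coordinate flank was covered over 42.7 to 58.9% of its length in the 11 lists, whereas the high-coordinate flank had a peak in 5 lists. Emx2, which sets the position of cortical areas, was covered on both sides. It had 15470, 15652 and 14608 bp in the WT cocaine lists, 14341, 13283 and 12810 bp in WT saline, 10969 and 14672 bp in cKO cocaine, and 8949, 13939 and 8484 bp in cKO saline. The WT lists lay within 12810 to 15652 bp, while the cKO lists spread from 8484 to 14672 bp.

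En1, needed for the midbrain and cerebellum, was covered over 14827, 14315 and 12669 bp in the WT cocaine lists. The WT saline lists were close to these, at 13947, 12981 and 13669 bp. In the cKO lists the values were 10321 and 12370 bp after cocaine and 8985, 10168 and 7629 bp after saline. Every cKO value lay below every WT value. En2, its paralogue in the cerebellum, had 16495, 16143 and 14274 bp in the WT cocaine lists, 15679, 12217 and 14822 bp in WT saline, 13368 and 15239 bp in cKO cocaine, and 13406, 13088 and 10971 bp in cKO saline. En2 was the most fully covered member, with a median of 86.5% of its locus. In WT cocaine 1 a single peak of 20951 bp covered the locus whole.

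**Figure D2:**
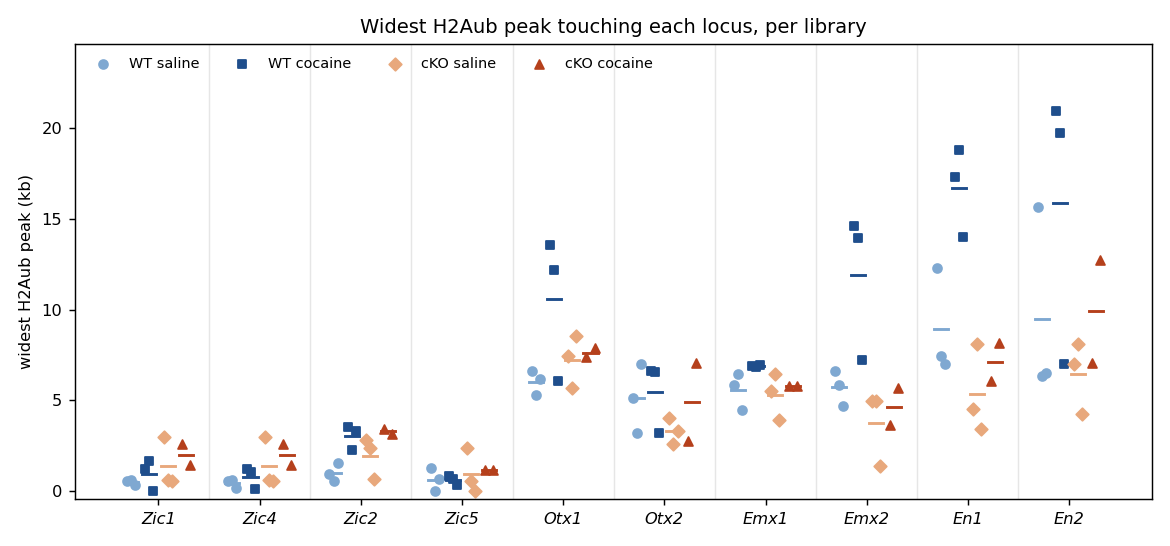
Width in kb of the widest H2Aub peak that touches each locus, with 1 point per library, colour and shape for the 4 groups and a bar at each group mean; a peak may run beyond its locus. Otx1 has a peak of at least 5 kb in 11 libraries, and no Zic gene reaches this width in any library.

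Within a list, the Otx, Emx and En genes ranked near the top of the genome. Ranked by covered length among all 21883 genes of the same list, the median percentile over the 11 lists was 98.8 for Emx1, 99.1 for Otx2, 99.4 for Otx1, 99.5 for En1 and 99.7 for both Emx2 and En2. The lowest percentile that any of these 6 took in a list was 98.1. The order among neighbours in this series was not stable, since their percentile ranges overlapped. Zic2 ranked between the 95.8 and 98.7 percentiles. Zic1 had a median percentile of 94.1, Zic4 of 94.5 and Zic5 of 92.2. In the 9 lists other than the cKO lists numbered 1, the highest fold over input at any of the 8 loci was 5.40.

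Paralogues were then compared within each list, as the percent of their locus under peaks, which makes loci of unequal length comparable. Otx1 was above Otx2 in all 11 lists, by a median of 22.8 percentage points, although in covered bp, with the longer Otx2 locus, it was above in 8 lists and below in 3. Emx2 was above Emx1 in all 11 lists, by a median of 56.0 points, with loci of 16668 and 26533 bp. In covered bp it was also above in all 11. En2 was above En1 in 10 of 11 lists, and En1 exceeded En2 by 9.66 points in WT saline 2. The Zic2-Zic5 locus was above the Zic1-Zic4 locus in all 11 lists, by a median of 10.6 points. Lists of a pair share their library and its depth, so this is a description within lists. All 6 single-gene loci were above the Zic1-Zic4 locus in 11 of 11 lists and above the Zic2-Zic5 locus in 9 of 11.

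The parts of each locus that were marked in all 11 lists differed in size and position. En2 had 8145 bp (49.4% of its locus) covered in every list, with the longest unbroken stretch at chr5:28166330-28170356 (4027 bp). That stretch began 634 bp inside the gene body. Otx1 had 5992 bp (35.5%), with a stretch of 4139 bp at chr11:21993806-21997944 that ran across the low-coordinate gene end. En1 followed with 4281 bp (27.6%) and Emx2 with 4373 bp (26.2%), each in several stretches. At Emx1, 4149 bp (15.6%) were shared by all lists, of which 3535 bp (chr6:85185798-85189332) lay over the low-coordinate gene end. At Otx2, 2399 bp (11.5%) were shared by all lists, mostly in the stretch chr14:48664988-48666880 at the high-coordinate end of the gene body.

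Between marked parts, some loci had stretches of at least 200 bp that were covered in 3 or fewer lists. Otx2 had 6 of them, and the longest was 3172 bp (chr14:48656336-48659507) and spanned the low-coordinate gene end. Emx2 had 1, of 1129 bp (chr19:59464323-59465451), at the high-coordinate gene end. Neither En1 nor En2 had such a stretch, and every base of both loci was covered in at least 1 list. In the Zic2-Zic5 locus there were 8, while the Zic1-Zic4 locus, with a single stretch covered in 6 or more lists, had none between marked parts. At Otx1 and Emx1 there was 1 each.

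**Figure D3:**
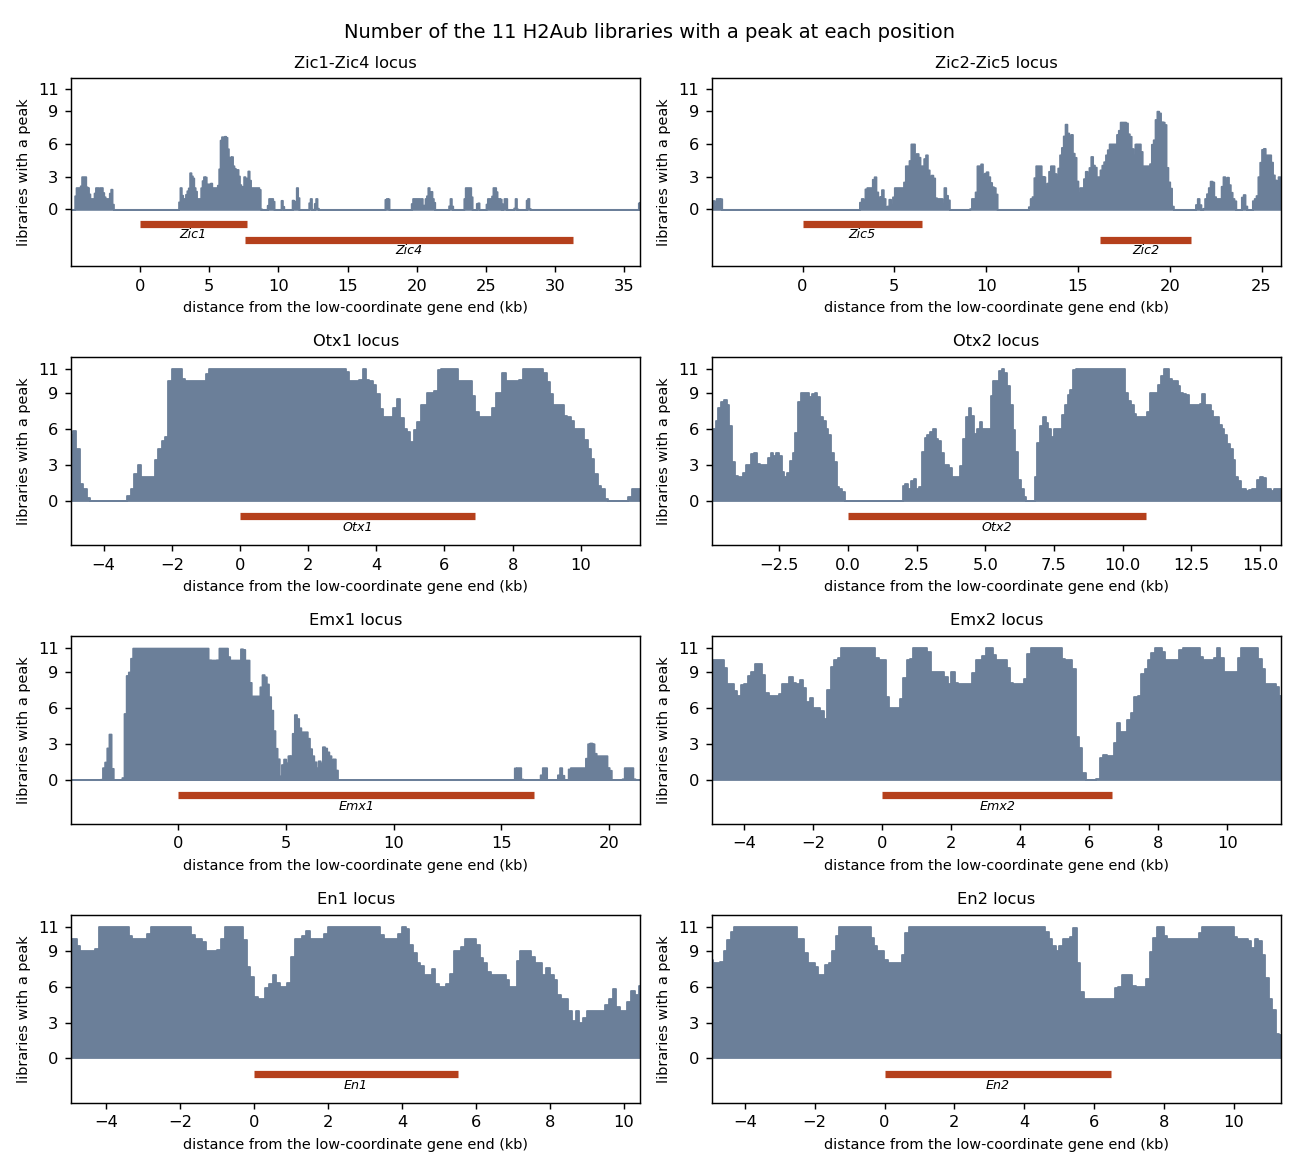
Number of the 11 H2Aub libraries with a peak along each of the 8 loci, against distance in kb from the low-coordinate end of the gene, as means in bins of 100 bp; the bars below mark the gene bodies. The Otx, Emx and En loci each reach 11 libraries over part of their length, while the Zic1-Zic4 and Zic2-Zic5 loci reach at most 7 and 9.

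The first comparison asked whether cocaine altered H2Aub at these genes in WT mice. Summed over the 8 loci, covered length was 91731, 91426 and 72121 bp after cocaine. After saline it was 80733, 64006 and 73487 bp. The groups overlapped, and the mean log2 difference was 0.22 ± 0.15 (SE). As a share of each list's total covered length the direction was the opposite (log2 difference −0.57), since the WT cocaine lists were longer overall. In 2 of the 10 members all WT cocaine lists lay above all WT saline lists, and in none did they lie below. Over the 8198 protein-coding genes with a peak in these lists, 15.5% were higher in this sense and 0.293% lower, so the count for the members was close to the background. With values as a share of list length, 1 member was higher (Zic2) and 3 were lower (Otx1, En1 and En2), against 7.55% of genes higher and 2.48% lower under the same scaling. In WT saline, En1 was already covered over 83.7 to 90.0% of its locus and En2 over 74.1 to 95.1%, which limits a rise. The count of members without overlap was 7 when WT cocaine replicate 3 was omitted and 4 when WT saline replicate 1 was, all higher, against 32.2 and 30.7% of all genes in either direction.

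The 2 genes were Zic2 and Emx2. Peaks spanned 5141 ± 919 bp of Zic2 after cocaine and 2283 ± 1024 bp after saline (SD, n = 3 each), a ratio of 2.25. The difference was 2858 ± 794 bp (SE; exact permutation test, two-sided, p = 0.10, the smallest that 3 against 3 lists allow; Benjamini-Hochberg adjusted p = 0.633 over 8198 genes). The separation lay in the Zic2 body, which was covered over 71.6, 64.8 and 67.4% in WT cocaine and over 21.6, 11.3 and 13.8% in WT saline. Both flanks overlapped between the groups. Zic2 remained higher as a share of list length (by 1346 bp after scaling) and lost its separation with flanks of 10 kb. For Emx2 the means were 15243 ± 558 bp and 13478 ± 784 bp (SD, n = 3 each), a ratio of 1.13 (exact permutation p = 0.10, adjusted p = 0.633). Its separation was lost at q at most 0.01 and with equal numbers of peaks per list, and as a share of list length the difference changed sign (−7855 bp). The Emx2 locus was already covered over 76.9 to 86.0% in WT saline, which limits a rise. Zic5 was the only member with a lower mean after cocaine (ratio 0.854, exact permutation p = 0.90). Over the other members that overlapped, ratios ran from 1.03 for En1 to 1.77 for Zic1, with exact permutation p of 0.20 or more.

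The same comparison in cKO mice used 2 cocaine and 3 saline lists. Summed covered length was 79374 and 86950 bp in cKO cocaine and 76583, 67451 and 55692 bp in cKO saline. Both cocaine values lay above all 3 saline values, with a log2 difference of 0.33 ± 0.15 (SE). The direction was the opposite as a share of list length (−0.34). At each Otx, Emx and En gene the lists numbered 1 then had the lowest value of their groups. At En2 the scaled values were 7980 and 17477 bp in cKO cocaine and 6165, 21631 and 32827 bp in cKO saline. The −0.34 was not recomputed without these lists. With the 7271 strongest peaks of each list the direction was also the opposite (−1.41), where cKO cocaine 1 fell to 1680 bp and cKO saline 1 to 8482 bp over the 8 loci. The other cocaine list then had 84224 bp and the other saline lists 66726 and 55692 bp. Without both lists numbered 1, the difference with equal numbers of peaks was 0.47, a check added after these values were seen. Otx2 and En1 were higher in both cocaine lists, and no member was lower. Over 14137 genes, 3.9% were higher and 0.0778% lower. Otx2 covered 12022 ± 2803 bp in cKO cocaine (SD, n = 2) and 7906 ± 451 bp in cKO saline (SD, n = 3), a ratio of 1.52 (exact permutation test, two-sided, p = 0.10, the smallest possible; Benjamini-Hochberg adjusted p = 1.0). En1 covered 11346 ± 1449 and 8927 ± 1270 bp, a ratio of 1.27 (exact permutation p = 0.20, adjusted p = 1.0). As a share of list length neither gene was separated and both differences changed sign (−2064 bp for Otx2 and −4414 bp for En1). En1 also overlapped between the groups when the gene body alone or flanks of 2 or 10 kb were used. Omitting cKO cocaine replicate 1 gave 5 members without overlap and omitting cKO cocaine replicate 2 gave 4, all higher after cocaine, against 9.54 and 33.4% of all genes in either direction. Omitting cKO saline replicate 1 gave 7, against 28.6%, and omitting both cKO lists numbered 1 gave 8, against 70.1%, all again higher, with a single cocaine list left.

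**Figure D4:**
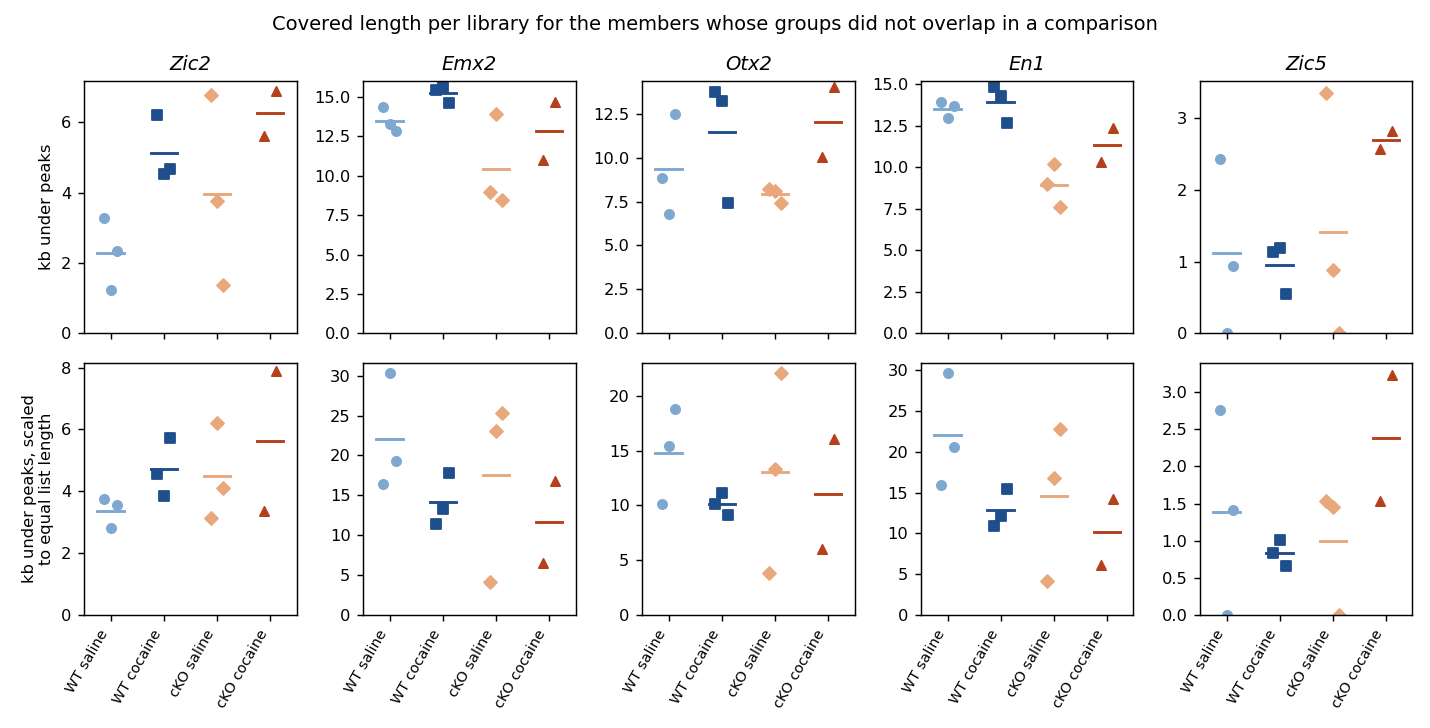
Covered length in kb per library for the 5 members whose lists did not overlap in a comparison, as measured (upper row) and scaled to equal total list length (lower row), with 1 point per library and a bar at each group mean. In the upper row all 5 cKO values of En1 (7629 to 12370 bp) lie below all 6 WT values (12669 to 14827 bp). In the lower row the genotypes overlap, and scaled values can exceed the length of the locus.

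Baseline H2Aub without Maged1 was examined in the saline groups, which share their lists with the comparisons above. Summed covered length differed by a log2 value of −0.13 ± 0.17 (SE), and the groups overlapped. En1 was the only member without overlap, and it was lower in cKO. Over 13342 genes, 0.607% were lower and 0.54% higher. Its mean covered length was 8927 ± 1270 bp, against 13532 ± 497 bp in the controls (SD, n = 3 each), a ratio of 0.660 and a difference of −4605 ± 788 bp (SE; exact permutation test, two-sided, p = 0.10, the smallest possible; Benjamini-Hochberg adjusted p = 1.0). The flank on the high-coordinate side of En1 was covered over 28.6, 30.3 and 22.5% in cKO saline, compared with 83.0, 67.8 and 86.3% in WT saline. In the gene body the values were 83.5, 71.8 and 45.0% against 87.1, 83.4 and 89.1%, and these overlapped. The separation was lost for the gene body alone and as a share of list length (4132, 16805 and 22827 bp against 15932, 29640 and 20596.5 bp after scaling). With the latter scaling Zic1 was instead the 1 member without overlap, higher in cKO saline (2392, 2902 and 1993 bp after scaling) than in WT saline (1645, 1338 and 1171 bp), against 0.922% of genes higher and 2.07% lower. Means of Zic1, Zic4 and Zic2 were 2.72, 2.86 and 1.74 times higher in cKO saline, but the unscaled lists overlapped (exact permutation p of 0.30 to 0.40, adjusted p = 1.0). Without both cKO lists numbered 1, the Zic1 difference fell from 1607 to 277 bp, the Zic4 difference from 1806 to 241 bp and the Zic2 difference from 1693 to 284 bp. Omitting WT saline replicate 1 or cKO saline replicate 2 gave 2 members without overlap, 1 higher and 1 lower in the first case and both lower in the second, against 2.77 and 4.79% of all genes in either direction. Omitting WT saline replicate 2 gave 3, all lower, against 2.91%, and omitting cKO saline replicate 3 gave 2 higher and 1 lower, against 7.2%.

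After cocaine, summed covered length in cKO and WT overlapped (log2 difference −0.0257 ± 0.13, SE). Zic5 was higher and En1 lower in both cKO lists than in all 3 WT lists. Over 11924 genes, 6.59% were higher and 3.25% lower. The paired Zic2-Zic5 locus was also higher in cKO without overlap, at 8197 and 9718 bp against 7337, 5729 and 5224 bp (ratio 1.47, exact permutation p = 0.20). Zic5 covered 2697 ± 179 bp in cKO cocaine (SD, n = 2) and 955 ± 360 bp in WT cocaine (SD, n = 3), a ratio of 2.82 (exact permutation test, two-sided, p = 0.10, the smallest possible; Benjamini-Hochberg adjusted p = 0.681). It overlapped at q at most 0.01, with equal numbers of peaks and for the gene body alone. En1 covered 11346 ± 1449 and 13937 ± 1128 bp, a ratio of 0.814 (exact permutation p = 0.20, adjusted p = 0.681). For En1 the separation was lost at q at most 0.01 and as a share of list length (6161 and 14186 bp against 10899, 12094 and 15483 bp after scaling). It held in the gene body, where the cKO cocaine lists were covered over 72.6 and 69.1%. The WT cocaine lists were covered over its whole length in replicates 1 and 2 and 91.5% in replicate 3. With the gene body alone, 1 member was higher (Zic1) and 4 were lower (Zic2, Emx1, Emx2 and En1), against 6.36% and 3.47% of genes. At q at most 0.05, 1 was higher (Zic5) and 3 were lower (Emx1, Emx2 and En1), against 5.12% and 3.3% of genes. As a share of list length, 2 were higher (Zic4 and Zic5) and none lower, against 7.21% and 4.93% of genes. Omitting WT cocaine replicate 3 gave 1 higher and 4 lower members, against 16.2% of all genes in either direction. Omitting cKO cocaine replicate 1 gave 3 higher and 2 lower, against 38.9%, and omitting cKO cocaine replicate 2 gave 3 of each, against 74.5%. In all 4 comparisons, no protein-coding gene had an unadjusted p under 0.05, since the designs do not allow one.

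Once the En1 values had been seen, the 5 cKO lists were set against the 6 WT lists with both treatments together. Of 14472 protein-coding genes, 0.0276% (4 genes) had all cKO lists below all WT lists, and these were En1, Hand1, Sfmbt2 and Hoxd1. The opposite pattern was seen in 0.0484%. En1 was the only member in either set, with 7629 to 12370 bp in cKO and 12669 to 14827 bp in WT. Leaving out lists cannot undo such an ordering, so omitting libraries was no check on it. The ordering was lost as a share of list length (4132 to 22827 bp in cKO, 10899 to 29640 bp in WT after scaling). It was also lost at q at most 0.01, for the gene body alone and with flanks of 10 kb. As this grouping was chosen on these values, no test is given.

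A difference between the genotypes in the effect of cocaine was tested over the 200 arrangements that swap cocaine and saline labels within WT and within cKO. For the 10 members the exact permutation p (two-sided) ran from 0.30 for En1 to 0.88 for Zic1, with Benjamini-Hochberg adjusted p of 1.0 over 14472 genes. The difference of the effects was 2014 bp for En1 and 2018 bp for Otx2, larger in cKO, and −1080 bp for Emx1, smaller in cKO. Of all genes, 25 had an unadjusted p under 0.05 and 0 an adjusted p under 0.05. The summed log2 difference of the effects was 0.11 ± 0.21 (SE).

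The highest peaks at these loci came from the cKO lists numbered 1. In cKO cocaine 1, a peak of 346 bp between Zic5 and Zic2 (chr14:122471817-122472162), inside the non-coding gene 2610035F20Rik, had a fold over input of 29.4 and a q-value of 5.60e-70. The highest peak of cKO saline 1 at this locus (chr14:122471812-122473716) overlapped it over all 346 bp and had a fold of 12.5. In the other 9 lists the highest fold in the locus was 5.12, and 2 of them had a peak that overlapped the 346 bp. At Otx2, both lists also had their highest peak at a shared place (chr14:48659508-48659727 in cKO cocaine 1, 220 bp), with folds of 8.69 and 13.3, against at most 4.99 in the other 9 lists. Both of these places adjoined a stretch that was covered in 3 or fewer lists. Those counts included the cKO lists numbered 1, so their own peaks helped to set the edges of the stretches. At the Otx1, Emx1 and En2 loci, the highest peaks of these lists were over 4 kb wide and overlapped a peak in all 9 other lists. The part that these 2 libraries play in the cKO values of the Zic genes was not tested beyond leaving them out.

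The 10 genes were set beside 28 genes known to act with them in patterning the anterior neural tube, the midbrain-hindbrain boundary and the thalamus. Of these, 21 had a peak in all 11 lists. They were the boundary genes Gbx2, Pax2, Pax5, Pax8, Wnt1, Fgf8 and Fgf18, the roof plate genes Lmx1a and Lmx1b, the forebrain and midbrain genes Gbx1, Wnt8b, Pax6, Six3, Barhl2, Lhx2, Lhx9, Olig3, Dmbx1 and Sp8, and the floor plate genes Shh and Foxa2. Among those with few peaks were Crx, with a peak in 1 list, Spry1 in 2 and Hesx1 in 4. The median over genes of the mean share of the locus covered was 22.3% for these 28, 72.5% for the Otx, Emx and En members and 10.1% for the Zic members. It was 79.9% for 39 Hox genes, 20.3% for 9 Pax genes, 0.0% for 77 ribosomal protein genes and 0.0898% for all protein-coding genes. Loci were not merged for these medians, so neighbouring genes of a cluster can share peaks. Every Hox gene and every Otx, Emx and En gene had a peak in all 11 lists, and 48 of the 77 ribosomal protein genes had none in any.

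**Figure D5:**
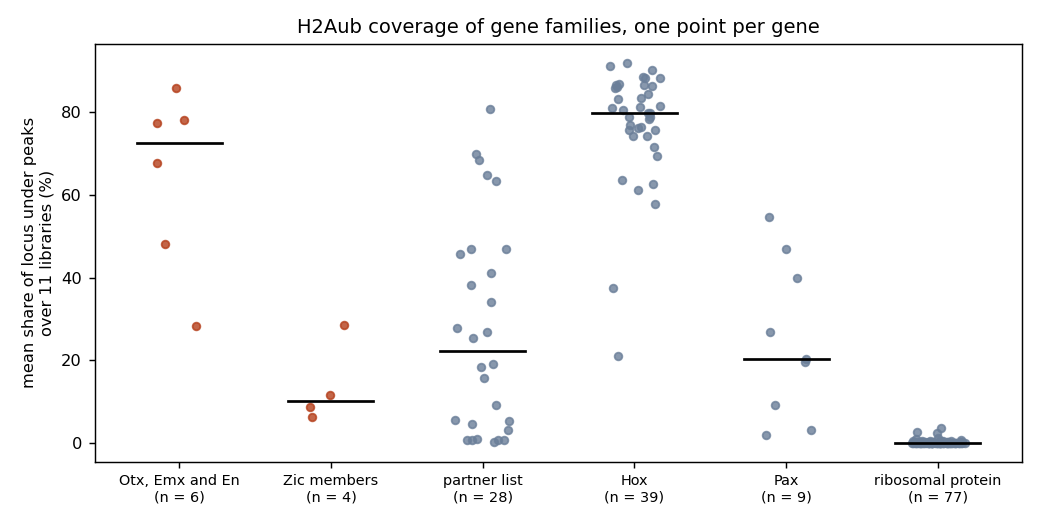
Mean share of the locus under H2Aub peaks over the 11 libraries in percent, with 1 point per gene and a bar at the median of each set. Loci are not merged, so neighbouring genes of a cluster can share peaks. The Otx, Emx and En members have a median of 72.5%, near the 79.9% of the Hox genes, and the Zic members one of 10.1%, with Zic2 above the other 3.

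Among the 28 genes, 7 were higher in all WT cocaine lists than in all WT saline lists (Gbx1, Pax2, Wnt8b, Fgf8, Six3, Shh and Olig3) and none was lower, beside the 15.5% of genes given above. In cKO, 1 was higher after cocaine (Wnt8b) and none lower, beside 3.9% of all genes higher. Gbx2, the antagonist of Otx2, was the 1 gene that was lower in cKO saline than in WT saline, beside 0.607% of all genes. After cocaine, 8 were lower in cKO than in WT (Gbx1, Pax2, Wnt8b, Fgf8, Six3, Dmbx1, Barhl2 and Lhx2), beside 3.25% of all genes, and none was higher. These comparisons share the WT cocaine lists, so the genes named in both are not independent of each other.

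Of the genes outside each paired Zic locus, those whose share of list length varied most like it over the 11 lists were Plch2 (Pearson r = 0.925), Ly6h (0.914) and Zfp653 (0.874) for Zic1-Zic4, chosen among 4631 genes. For Zic2-Zic5 they were Actl10 (0.912), 1700003F12Rik (0.911) and Shisa2 (0.906), among 4630. The points share libraries of unequal depth, and these values are a description.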

How the data were processed

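H2Aub ChIPmentation libraries were prepared from thalamic chromatin, 11 with antibody and 4 total input libraries, and the input libraries were not analysed here. Per the study's methods and the labels, the authors trimmed reads with Cutadapt, aligned them to mm10 with Bowtie2 2.3.4.1, kept well mapped reads with SAMtools and called broad peaks with MACS2 2.1.1.20160309.3 against total input, 1 list per library. The deposited lists give each peak's position, a score, a fold enrichment (a ratio to input) and −log10 p- and q-values. The lists hold q-values up to 0.0997, with 9.82 to 32.9% of peaks above 0.05, the threshold that the study's methods name. They give no read counts, so depth is unknown and was not corrected for.

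Peaks of a library were merged and intersected with RefSeq gene bodies (GRCm38.p6) plus 5 kb. Covered length (bp), percent of locus and widest peak were computed with Python 3.11.15, numpy 2.4.6 and pandas 2.3.3, for 21883 protein-coding genes, and 10 peaks off the assembled chromosomes were not used. No gene sequences were used here, so a planned search of promoters was not made. A gene was counted as higher or lower where the lists of 2 groups did not overlap. P-values are from exact permutation tests, two-sided, over libraries, with Benjamini-Hochberg adjustment over all genes with a peak in the lists compared, and the code was tested on simulated data. With 3 against 3 or 2 against 3 lists, p cannot go below 0.10. All members and paired loci were named, together with the partner genes that had a peak in all lists or a comparison without overlap, and the 3 genes most like each paired locus. Some planned comparison genes are not reported here.

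The members, lists of genes and tests were chosen with earlier results of these data known. The 5 kb limit for wide peaks, the maps of shared and poorly covered stretches, the split into body and flanks, the paralogue comparison, the search for the highest peaks and the comparison of all cKO with all WT lists were added after member values had been seen. Alternatives were q at most 0.05 or 0.01, equal numbers of peaks per list (the 7271 strongest), covered length as a share of the list's total (scaled to the mean list), gene bodies alone, flanks of 2 or 10 kb, a replicate block and leaving out libraries.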

Additional observations from a re-analysis of the deposited data

How the results depend on the processing

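Counts of members without overlap (2 in WT cocaine against saline, 2 in cKO, 1 in cKO saline against WT saline, 2 in cKO cocaine against WT cocaine) and summed log2 differences moved by less than 1.5 times or the spread between libraries in 103 recomputations and by more in 38. Shares in parentheses are those of all genes without overlap, in either direction, at the same setting. With equal numbers of peaks the WT count was 1 (12.6%) and the cKO count 0 (2.94%), and the log2 difference was −1.41 in cKO, −1.15 between saline groups, −2.76 between cocaine groups and −1.61 for the difference between genotypes. These values rest on the cKO lists numbered 1, which kept 1680 and 8482 bp over the 8 loci, against 55692 to 88841 bp in the other 9 lists. Without both, in a check added after seeing the data, they were 0.47, −0.20, 0.060 and 0.26, with counts of 7 in cKO (56.0%), 1 between saline groups (lower, 11.6%) and 4 between cocaine groups (2 higher and 2 lower, 35.5%). As a share of list length, the WT count was 4 (1 higher and 3 lower, 10.0%) and the cKO count 0 (5.56%). The count between saline groups stayed at 1 but turned from En1 lower to Zic1 higher (2.99%), and that between cocaine groups stayed at 2 but turned from Zic5 higher and En1 lower to Zic4 and Zic5 higher (12.1%). With this scaling the log2 difference was −0.57 in WT, −0.34 in cKO and −0.40 between saline groups. The last 2 values include the cKO lists numbered 1, whose scaled values were the lowest of their groups at each Otx, Emx and En gene. They were not recomputed without these lists. Emx2 in WT (−7855 bp), Otx2 in cKO (−2064 bp) and En1 in cKO (−4414 bp) changed sign as a share of list length. With flanks of 10 kb the count was 1 in WT (16.0%) and 1 in cKO (3.81%). Between saline groups it was 0 for gene bodies alone (1.43%) and 2, both lower, with 2 kb flanks (1.29%). Between cocaine groups it was 4 at q at most 0.05 (1 higher, 8.42%), 1 at q at most 0.01 (lower, 5.24%), 5 for gene bodies (1 higher, 9.83%) and 6 with 2 kb flanks (3 higher, 10.2%). Without both cKO lists numbered 1 it was 5 (3 higher, 38.9%), and 8 in cKO (all higher, 70.1%). Leaving out 1 library gave counts of 2 to 7 in WT, 2 to 7 in cKO, 1 to 3 between saline groups and 3 to 6 between cocaine groups. The log2 differences then ran from 0.13 to 0.34, 0.21 to 0.44, −0.24 to −0.011 and −0.14 to 0.040, and from −0.015 to 0.21 for the difference between genotypes. Fewer lists make overlap less likely by construction, and otherwise the cause was not tested.

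The replicate block counts members that moved 1 way in every same-numbered pair. It gave 3 in WT (26.9% of all genes), 4 in cKO (16.9%), 2 between saline groups (1 higher, 4.08%) and 5 between cocaine groups (1 higher, 22.0%), and the numbers mark no shared animal or day in the labels. Same-numbered deviations correlated at 0.43, 0.20 and −0.26 in WT, at 0.71 and 0.73 in cKO, at 0.49, −0.11 and −0.17 between saline groups and at −0.037 and −0.32 between cocaine groups. Not every sample correlated best with its own number. The reads behind each list are unknown, so the part of depth in the covered lengths was not tested.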
